A study of Mus musculus with 163 samples.

Results

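The genes described are 10 that build or serve the mechanotransduction apparatus of the hair cell: Tmc1, Tmc2, Tmie, Lhfpl5, Cib2, Cib3, Tomt, Pcdh15, Cdh23 and Loxhd1. They were chosen by name, by their place in this apparatus, and are 10 of 55291 genes in the count table. Single hair cells were picked by hand from mouse cochleae at postnatal day 7 and sequenced one by one with a full-length Smart-Seq protocol. The table held 81 control and 82 mutant cells, labelled as outer hair cells (OHCs) or inner hair cells (IHCs). There were 43 control OHCs, 56 mutant OHCs, 38 control IHCs and 26 mutant IHCs. Control mice were Atoh1P2A-Tdtomato/+, with 1 reporter allele at Atoh1, the transcription factor gene that starts hair cell fate. Mutant mice were Atoh1P2A-Cre/P2A-Tdtomato with Rbm24flox/flox, so that Cre from the Atoh1 locus removed Rbm24, an RNA-binding protein gene, from hair cells. The genotype field of the mutant cells also carries a "/+" that the design text does not. Mutant cells therefore differed from control cells in Cre and in the second Atoh1 allele as well as in Rbm24. All cells carried tdTomato.

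Hair cells turn sound into current at the tips of their stereocilia. A tip link, made of cadherin-23 at its upper end and protocadherin-15 at its lower end, pulls on a channel complex when the bundle is deflected. TMC1 and TMC2 are held to form the pore. In the cochlea Tmc2 is used early after birth and gives way to Tmc1, so the balance of the 2 genes serves as a measure of maturity. TMIE, LHFPL5 and the calcium-binding proteins CIB2 and CIB3 sit in or beside the complex, TOMT is needed to bring TMC proteins to the bundle, and LOXHD1 is needed for channel function in maturing hair cells.

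Stretches of sequence are given for the members on which the results turn. In the pore genes, GTGTG runs are shown because RBM24 is known to bind GU-rich RNA. The following 30 bases of the coding sequence hold such a run, in capitals, at coding bases 691 to 720 of Tmc1 and 1256 to 1285 of Tmc2, counted from the start codon of the GENCODE transcripts.
Tmc1 coding sequence: gcagccaactttgGTGTGttgtatgacttc
Tmc2 coding sequence: ttctctgctgtctGTGTGgaagcgggtacc
The run occurred 4 times in the 4073 bases of the Tmc1 transcript and 4 times in the 3216 bases of the Tmc2 transcript. That is 0.982 and 1.24 per kb, against a median of 1.45 per kb over the longest coding transcripts of 12235 genes. Cib2 had the densest runs of the 10 members, at 3.49 per kb, above 91.1% of those genes, and Cib3 had 0 in 585 bases. The match is of letters on the RNA strand only, with overlapping matches counted, and is not evidence of binding.

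RefSeq promoter entries (GRCm38.p6) matched 8 of the 10 members. The 250 bases before the RefSeq start are shown for Tmc1, which was the member with the lowest mutant to control ratio in OHCs, and for Pcdh15, the tip link gene with the higher level in both kinds of mutant cell. They lie at chr19:20954203-20954452 on the minus strand and at chr10:73821617-73821866 on the plus strand, and the Pcdh15 start falls inside the span of that gene in GENCODE. Capitals mark the E-box CAGNTG, the kind of element that ATOH1 and related factors bind, searched on both strands.
Tmc1 promoter: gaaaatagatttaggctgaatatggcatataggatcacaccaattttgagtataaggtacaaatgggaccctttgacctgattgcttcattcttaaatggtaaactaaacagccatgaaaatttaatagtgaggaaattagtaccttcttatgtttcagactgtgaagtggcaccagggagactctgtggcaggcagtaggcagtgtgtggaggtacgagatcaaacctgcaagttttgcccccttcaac
Pcdh15 promoter: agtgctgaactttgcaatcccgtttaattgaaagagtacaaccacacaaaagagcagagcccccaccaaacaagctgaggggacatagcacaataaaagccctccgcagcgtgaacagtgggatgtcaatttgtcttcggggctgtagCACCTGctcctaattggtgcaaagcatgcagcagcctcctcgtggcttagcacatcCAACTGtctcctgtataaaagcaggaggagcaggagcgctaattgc
An E-box was present in the promoters of 5 of the 8 matched members, and in 44.8% of 32851 RefSeq promoters of the same length. Pcdh15 had 2 and Tmc1 had 0. The motif TGGGAA, the core read by Ikaros family factors such as IKZF2, was found in 0 of the 8 and in 21.6% of all promoters.

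Depth was 5.47e+06 to 1.81e+07 counts per cell, with higher medians in mutant OHCs and IHCs (1.28e+07 and 1.42e+07) than in control OHCs and IHCs (9.09e+06 and 8.67e+06). Levels below are counts per 1000000 counted reads (CPM). No label names an animal, so each group was treated as 1 sample, and no difference between groups was tested. Intervals are exact 95% intervals for counting error only: the reads carry no molecular identifiers, so they do not stand for independent molecules. Intervals of a share of cells are exact binomial intervals for the number of cells counted. They leave out differences between animals and are no comparison of genotypes. Rbm24 lay between 78.8 and 921 CPM in all control cells and between 0 and 15.6 CPM in all mutant cells, as the genotype labels say. The sources do not say how cells were assigned to OHC or IHC. By rules on marker levels, 4 cells were set apart. Control OHC 1 had 0.156 CPM of Slc26a5 and 7.64 CPM of Ocm, although its summed OHC markers (315 CPM) exceeded its IHC markers (0.312 CPM), as its label says. Mutant OHCs 17, 34 and 53 had more of the IHC than of the OHC markers compared, with both sums under 1 CPM. Summed levels of 9 supporting cell markers had medians of 18.5, 0.512, 0.810 and 12.8 CPM in control OHCs, mutant OHCs, control IHCs and mutant IHCs, with single cells up to 1356, 327, 1711 and 156 CPM. Of 4 neuronal markers Prph was at 0 in all groups and Tubb3 at 2.16 CPM or less. The summed level ran from 0 to 718 CPM in control OHCs, 172 to 1305 in mutant OHCs, 200 to 889 in control IHCs and 351 to 2358 in mutant IHCs. It came almost wholly from 2 neurofilament genes. In the same order of groups, Nefl stood at 103, 292, 376 and 573 CPM and Nefm at 78.3, 351, 153 and 522 CPM. The part of the supporting cell and neuronal markers in the results was not tested. Cells with Y-linked transcripts and no Xist numbered 32, 16, 26 and 7 in the same order, and cells with Xist only 10, 34, 12 and 19. Sex was thus unevenly spread over the genotypes. Ratios within each sex are given for some results only, and a ratio given without them may still depend on sex. The pseudogene Gm15772 also divided the cells, with 25, 16, 23 and 7 cells under 40 CPM. In mutants these cells numbered the same as those with Y-linked transcripts and no Xist. They also gave the same OHC to IHC ratio for every member. Both sets thus stand for the same mutant cells and are not separate checks.

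**Figure D1:**
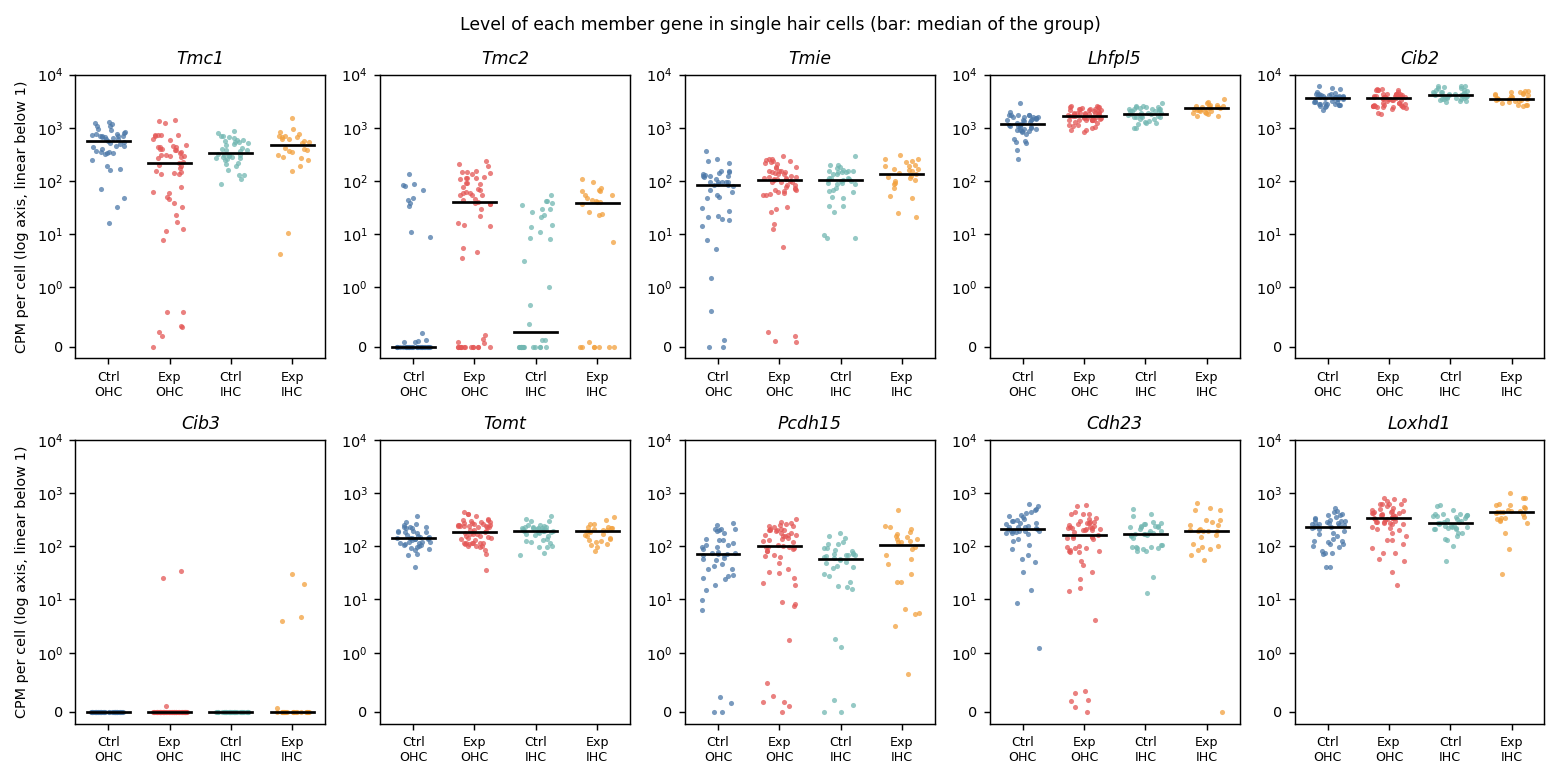
Level of each of the 10 genes in every cell, as CPM on a log axis that is linear below 1, in the 4 groups (Ctrl, control; Exp, mutant). Each point is 1 cell and each bar the median. Tmc2 lies at 0 in 27 of 43 control OHCs and is detected in most mutant OHCs, whereas Cib2 is at 1844 CPM or more in every cell.

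Compared per kb of merged exons, so that genes of unequal length can be set side by side, the small calcium-binding protein gene Cib2 had the highest level in all 4 groups. It reached 2489 CPM per kb in control OHCs, 2391 in mutant OHCs, 3012 in control IHCs and 2579 in mutant IHCs. Lhfpl5, the tetraspan partner of protocadherin-15, came second, at 512 (control OHCs), 715 (mutant OHCs), 786 (control IHCs) and 980 (mutant IHCs) CPM per kb. In every group the quartile ranges over cells of these genes overlapped neither each other nor that of the gene ranked next. Tmc1 and Tomt took the next places in an order that differed between groups, at 80.8 and 54.6 CPM per kb in control OHCs and 43.6 and 71.5 in mutant OHCs, and their quartile ranges overlapped in every group. Tmie and Loxhd1 followed, between 25.6 and 51.2 CPM per kb. Cdh23 lay between 11.0 and 13.8, Tmc2 between 3.27 and 17.3, and Pcdh15 between 2.52 and 5.19 CPM per kb. Cib3 was last everywhere, at 0 in both control groups and at most 0.988 CPM per kb. For Pcdh15 and Cdh23, whose merged exons span 23.8 and 16.9 kb over many isoforms, the counts do not separate isoforms, and a level per merged kb understates genes that use only some of their exons. For Tmc1 the merged exons span 7.19 kb and the transcript given above 4073 bases, beside 2.86 kb and 2796 bases for Tomt. The order of Tmc1 and Tomt thus depends on the length used.

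**Figure D2:**
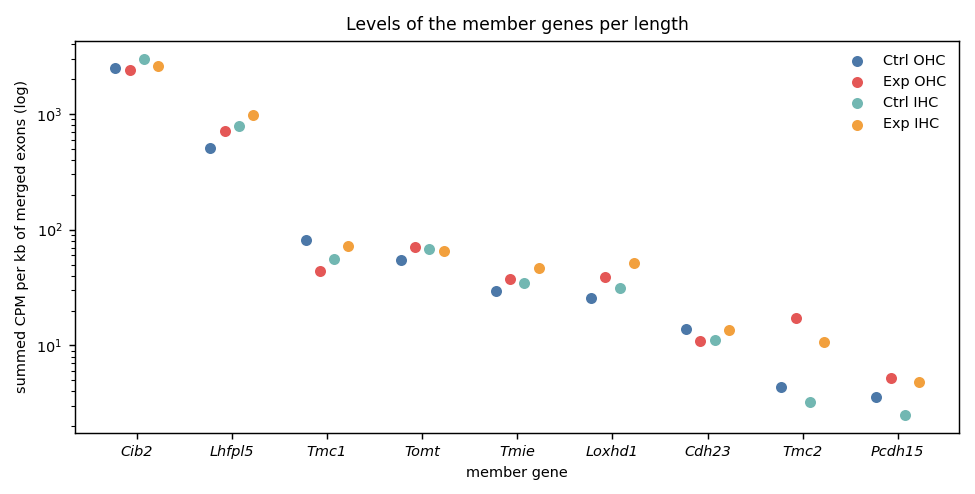
Summed CPM per kb of merged exons for 9 of the 10 genes in the 4 groups, on a log axis (Ctrl, control; Exp, mutant). Cib3 is left out because it is at 0 in both control groups. Cib2 lies between 2391 and 3012 CPM per kb in all groups, and Tmc2 shows the widest spread between groups.

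The pore gene Tmc1 was lower in mutant than in control OHCs. In control OHCs its level ran from 16.2 through a median of 557 to 1264 CPM, and in mutant OHCs from 0 through 219 to 1411 CPM. The groups overlapped over most of their range, but 10 of 56 mutant OHCs were below the lowest control OHC, 46 of 56 were below the control median, and 2 were above the highest control cell. Of the control OHCs, 43 of 43 reached 10 CPM (100%, 91.8 to 100), and of the mutant OHCs 48 of 56 (85.7%, 73.8 to 93.6). The summed levels were 581 CPM (579 to 584) and 313 CPM (312 to 314), a log2 ratio of -0.89 (-0.90 to -0.88). The ratio was -0.88 without the 4 cells set apart by their markers. Cells with Y-linked transcripts gave -0.75 and those with Xist gave -0.31, so the ratio moved by 1.5-fold in the latter set, where control OHCs numbered 10.

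In IHCs Tmc1 was not lower in the mutant. Control IHCs ran from 88.4 through 338 to 884 CPM and mutant IHCs from 4.18 through 470 to 1557 CPM. Both groups covered much the same range, with 18 of 26 mutant IHCs above the control median. The summed levels were 404 and 518 CPM, a log2 ratio of 0.36 (0.35 to 0.37) that stayed between 0.26 and 0.66 over 11 alternative settings. In order of level the groups ran from control OHCs through mutant IHCs and control IHCs to mutant OHCs, and the quartile ranges of neighbours in this order overlapped. The same held for the order of the groups in each of the other 9 genes, with Cib3 at quartiles of 0 throughout. Control OHCs had more Tmc1 than control IHCs (log2 ratio 0.52), and mutant OHCs less than mutant IHCs (-0.72).

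Mutant OHCs also varied more in Tmc1. The coefficient of variation over cells was 57.3% in control OHCs and 108% in mutant OHCs, and 51.5% and 64.9% in control and mutant IHCs. Within OHCs, cells with more Tmc1 had more of the OHC genes. Across the 43 control OHCs the Spearman correlation of Tmc1 with Ikzf2, a transcription factor gene of maturing OHCs, was 0.70, with Slc26a5, the prestin gene, 0.64 and with Ocm, the oncomodulin gene, 0.63. Across the 56 mutant OHCs the values were 0.61, 0.37 and 0.54. In IHCs they lay between -0.24 and 0.18, but these genes were lower there than in OHCs of the same genotype. In control and mutant IHCs Slc26a5 stood at 0.64 and 0.825 CPM and Ocm at 34.2 and 0.0219 CPM. Ikzf2 stood at 2.45 CPM in mutant IHCs. The IHC values thus cannot say whether the correlation with Tmc1 is particular to OHCs. In control and mutant OHCs the levels were 376 and 27.5 CPM for Slc26a5, 4951 and 18.6 CPM for Ocm, and 174 and 39.9 CPM for Ikzf2. The summed level of 7 OHC markers had correlations with Tmc1 of 0.70 in control OHCs, 0.69 in mutant OHCs, 0.17 in control IHCs and 0.41 in mutant IHCs. Other marker sums went the other way in OHCs. In the same order of groups, 7 general hair cell markers had -0.68, -0.26, -0.20 and 0.25. The values for 8 IHC markers were -0.64, -0.12, -0.21 and -0.12. Insm1, a transcription factor gene of young OHCs, had a correlation of -0.36 with Tmc1 in mutant OHCs. The value was 0.01 in control OHCs and -0.01 in mutant IHCs, and none could be computed in control IHCs. These correlations are across cells that share animals and CPM totals, and are descriptions. Tmc1 had correlations of 0.24, 0.07, 0.27 and 0.40 with the total counts of the cell in control OHCs, mutant OHCs, control IHCs and mutant IHCs.

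Tmc2, the pore gene of the first postnatal days, was higher in both kinds of mutant cell. Control OHCs had between 0 and 134 CPM with a median of 0, and mutant OHCs between 0 and 238 CPM with a median of 39.6. Cells with no Tmc2 read were present in every group, and numbered 27 of 43, 13 of 56, 17 of 38 and 7 of 26 in control OHCs, mutant OHCs, control IHCs and mutant IHCs. At 10 CPM or more stood 10 of 43 control OHCs (23.3%, 11.8 to 38.6) and 36 of 56 mutant OHCs (64.3%, 50.4 to 76.6). These shares were the same after every cell was thinned to 5000000 counts. Summed levels were 14.0 and 55.7 CPM, a log2 ratio of 1.99 (1.95 to 2.03). In IHCs the lowest, median and highest cells had 0, 0.250 and 54.1 CPM in controls and 0, 38.1 and 110 CPM in mutants. There 13 of 38 control (34.2%, 19.6 to 51.4) and 17 of 26 mutant cells (65.4%, 44.3 to 82.8) reached 10 CPM, and the summed levels were 10.5 and 34.3 CPM, a log2 ratio of 1.71 (1.65 to 1.76). The groups overlapped in both cell types, and 8 mutant OHCs and 7 mutant IHCs were above the highest control cell of their type. The size of the ratio in OHCs depended on the cells used: it was 2.85 among cells under 40 CPM in Gm15772 and 1.18 among the others.

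The 4 control OHCs highest in Tmc2 gave most of the Tmc2 counts of their 43 cells. In mutant OHCs the highest 10 of 56 cells were needed for the same.

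The balance of the pore genes was computed in each cell as Tmc1 counts in percent of Tmc1 plus Tmc2 counts. The lowest, median and highest control OHCs were at 48.5%, 100% and 100% Tmc1, and the mutant OHCs at 0%, 86.3% and 100%. In IHCs they were 87.4%, 99.9% and 100% in controls and 36.7%, 92.8% and 100% in mutants. Mutant cells of both types thus reached below the lowest control cell, while every group also held cells with Tmc1 alone. Under 90% Tmc1 were 7 of 43 control OHCs (16.3%, 6.81 to 30.7) and 32 of 56 mutant OHCs (57.1%, 43.2 to 70.3). For IHCs it was 3 of 38 controls (7.89%, 1.66 to 21.4) and 8 of 26 mutants (30.8%, 14.3 to 51.8). As a ratio of summed counts, Tmc1 exceeded Tmc2 41.4-fold in control OHCs, 5.62-fold in mutant OHCs, 38.5-fold in control IHCs and 15.1-fold in mutant IHCs. Per kb of merged exons these were 18.5, 2.51, 17.2 and 6.75. The merged exons of Tmc1 span 7.19 kb, but its transcript given above has 4073 bases. For Tmc2 both lengths are 3216 bases. The ratios per merged kb are thus lower than ratios by transcript length would be. The median over cells of the Tmc1 to Tmc2 ratio was 6.29 in mutant OHCs, 818 in control IHCs and 12.8 in mutant IHCs, and has no finite value in control OHCs, where most cells had no Tmc2 read.

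A cell low in one pore gene was not always high in the other. Both genes reached 10 CPM in 10 of 43 control OHCs, 30 of 56 mutant OHCs, 13 of 38 control IHCs and 17 of 26 mutant IHCs. Tmc1 alone did so in 33, 18, 25 and 8 cells. In 6 mutant OHCs Tmc2 alone reached 10 CPM, which was so in 0 cells of the other groups. Neither did in 2 mutant OHCs and 1 mutant IHC. Across cells the Spearman correlation of Tmc1 with Tmc2 was weak in every group, at -0.26, -0.21, 0.18 and -0.04 in control OHCs, mutant OHCs, control IHCs and mutant IHCs.

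**Figure D3:**
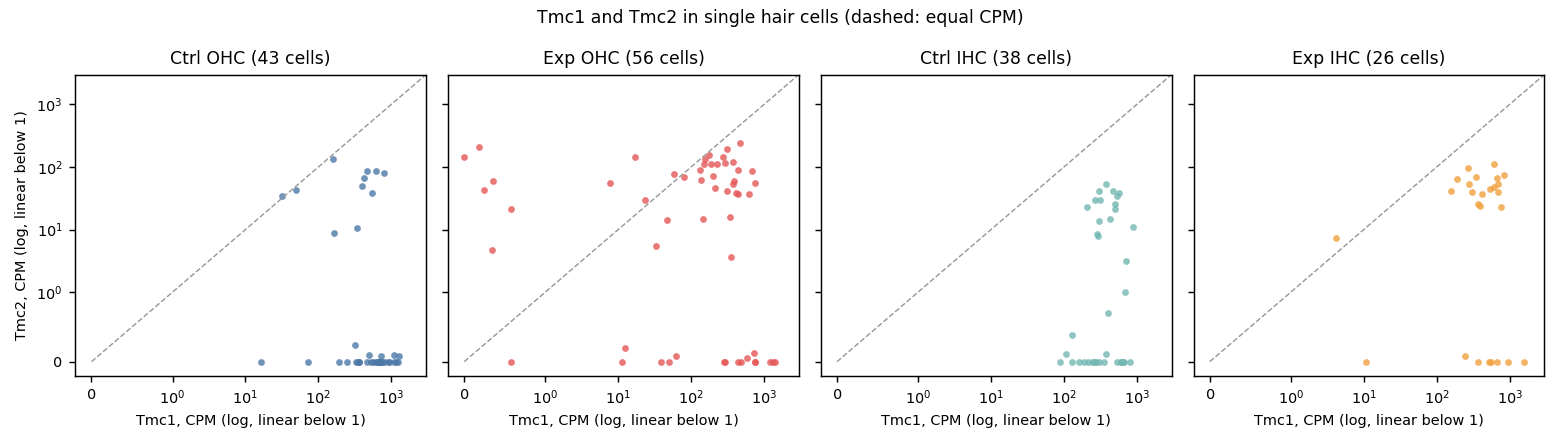
Tmc1 (horizontal) against Tmc2 (vertical) in each cell, in CPM on log axes that are linear below 1, with 1 panel per group (Ctrl, control; Exp, mutant) and a dashed line of equal CPM. Cells above the line have more Tmc2 than Tmc1: 1 control OHC, 10 mutant OHCs, 0 control IHCs and 1 mutant IHC.

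Among the accessory genes, Tmie and Lhfpl5 were somewhat higher in mutant cells of both types. Tmie, whose product binds the channel and lipids at the lower tip link, had lowest, median and highest levels of 0, 85.8 and 361 CPM in control OHCs and 0.0747, 107 and 291 CPM in mutant OHCs. In IHCs these were 8.57, 104 and 295 CPM against 21.0, 138 and 304 CPM. The ranges overlapped almost fully, and the log2 ratios of the summed levels were 0.32 in OHCs and 0.42 in IHCs. Als2cl, on the opposite strand, overlaps 7.89% of the exon bases of Tmie.

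Lhfpl5 was measured in every cell, at 256 CPM or more. Its lowest, median and highest levels were 256, 1155 and 2907 CPM in control OHCs and 824, 1665 and 2535 CPM in mutant OHCs, and 48 of 56 mutant OHCs were above the control median. In IHCs the values were 971, 1852 and 2950 CPM in controls and 1644, 2308 and 3412 CPM in mutants, with 23 of 26 mutant cells above the control median. The log2 ratios were 0.48 (range over 11 alternatives 0.33 to 0.52) and 0.32 (0.12 to 0.46). Control OHCs were below control IHCs (log2 ratio -0.62), and 14 of 43 had less than the lowest control IHC. Among mutant cells the OHC to IHC ratio was -0.46, and 26 of 56 OHCs had less than the lowest mutant IHC. All ranges overlapped.

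Cib2, which binds the intracellular loops of the TMC proteins, had nearly equal levels in control and mutant OHCs. Its lowest, median and highest levels were 2159, 3594 and 5995 CPM in control OHCs and 1844, 3596 and 5384 CPM in mutant OHCs, with 28 of 56 mutant cells above the control median. The log2 ratio was -0.06, and 0.03 among cells at 40 CPM or more in Gm15772, so that no direction can be given. In IHCs the values were 3026, 4176 and 6188 CPM against 2529, 3515 and 4950 CPM. There the log2 ratio was -0.22 (-0.40 to -0.21 over 11 alternatives), and 7 of 26 mutant IHCs were above the control median. Cib2 moved with the number of genes detected in a cell, with Spearman correlations of -0.45, -0.48, -0.65 and -0.83 in control OHCs, mutant OHCs, control IHCs and mutant IHCs. The part of this in the genotype ratios was not tested. Sh2d7 overlaps 15.8% of the Cib2 exon bases on the opposite strand and had at most 1.86 CPM in any group.

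Cib3, the paralog of Cib2 best known from vestibular hair cells, had 0 counts in all 81 control cells. A count of 0 over a group allows 0.00751 CPM in control OHCs and 0.00861 CPM in control IHCs (3 counts of the total). It was read in 3 of 56 mutant OHCs (622 counts, 0.863 CPM) and 5 of 26 mutant IHCs (726 counts, 1.99 CPM). Against the limit of 3 counts per group the levels were at least 115-fold higher in mutant OHCs and at least 231-fold higher in mutant IHCs. These ratios rest on very few cells: 1 mutant OHC held 56.8% of the counts of its group and 1 mutant IHC 47.4%. At 10 CPM or more stood 2 of 56 mutant OHCs (3.57%, 0.435 to 12.3) and 2 of 26 mutant IHCs (7.69%, 0.946 to 25.1). Finding it in 0 of 43 control OHCs and 0 of 38 control IHCs allows shares of cells with a read of up to 6.98% and 7.89%, taken as 3 cells of the total.

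Tomt, needed for the transport of TMC proteins, was measured in every cell. Control OHCs ran from 41.4 through 143 to 365 CPM and mutant OHCs from 35.8 through 187 to 440 CPM, and 38 of 56 mutant cells were above the control median. The log2 ratio was 0.39 and lay between 0.08 and 0.79 over the alternatives. It was 0.74 among OHCs with Y-linked transcripts and 0.09 among those with Xist. Control and mutant IHCs were nearly equal, from 69.5 through 197 to 371 CPM and from 81.9 through 190 to 349 CPM. Their log2 ratio of -0.05 took the opposite sign (0.37) in the cells with Y-linked transcripts. The sign was also opposite in those under 40 CPM in Gm15772, which in the mutant are not a separate set. Anapc15 on the opposite strand covers 69.3% of the exon bases of Tomt, and had at most 13.3 CPM. The library kit does not mark strand and the counting of shared reads is not given in the sources used here, so the Tomt level is uncertain.

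Over all cells the tip link genes had ratios of opposite sign in OHCs and of the same sign in IHCs. The opposite signs in OHCs held in neither Gm15772 set. Both genes had positive ratios among cells under 40 CPM (Pcdh15 1.27, Cdh23 0.04) and negative ones among the others (-0.10 and -0.74). Pcdh15, which makes the lower end of the link, ran from 0 through 71.0 to 272 CPM in control OHCs and from 0 through 103 to 320 CPM in mutant OHCs. In IHCs it ran from 0 through 58.9 to 180 CPM in controls and from 0.645 through 107 to 476 CPM in mutants, and 5 of 26 mutant IHCs were above every control IHC. The log2 ratios were 0.54 in OHCs and 0.94 in IHCs. The IHC value lay between 0.79 and 1.33 over 11 alternatives. In OHCs it was 1.27 among cells under 40 CPM in Gm15772 and -0.10 among the others, and 1.10 in the Y-linked set and 0.20 in the Xist set.

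Cdh23, which makes the upper end, ran from 1.24 through 216 to 620 CPM in control OHCs and from 0 through 161 to 608 CPM in mutant OHCs, where 6 of 56 cells fell below the lowest control cell. Its summed levels of 234 and 186 CPM gave a log2 ratio of -0.33, which was 0.04 among cells under 40 CPM in Gm15772 and -0.74 among the others. OHCs with Y-linked transcripts gave -0.09 and those with Xist gave -0.64. In IHCs it ran from 13.5 through 169 to 493 CPM in controls and from 0 through 196 to 645 CPM in mutants, a log2 ratio of 0.28 (0.19 to 0.41). All these ranges overlapped.

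Loxhd1 was higher in the mutant in both cell types. Its lowest, median and highest levels were 40.5, 227 and 532 CPM in control OHCs and 18.6, 336 and 805 CPM in mutant OHCs. In IHCs they were 51.8, 277 and 599 CPM in controls and 30.2, 443 and 1007 CPM in mutants. The ranges overlapped, with 41 of 56 mutant OHCs and 22 of 26 mutant IHCs above the median of their controls. The log2 ratios were 0.62 (0.55 to 0.79 over 11 alternatives) and 0.70 (0.34 to 0.87).

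Past a 2-fold difference between mutant and control OHCs were 2 members higher (Tmc2 and Cib3) and 0 lower. Over all 14588 genes whose level, averaged over both groups, reached 1 CPM, 18.4% were past 2-fold higher and 13.1% past 2-fold lower. The same 2 members were past 2-fold higher in mutant IHCs and 0 lower, against 18.8% and 11.7% of 14557 genes. These percentages cover genes that reached 1 CPM, as 9 of the members did in either comparison, all but Cib3. Among those 9, 1 was past 2-fold higher and 0 lower in each comparison, so the share of the members past 2-fold was not above the background. The median log2 ratio of the members was 0.39 in OHCs and 0.36 in IHCs, beside 0.06 and 0.11 over all genes. Between control OHCs and control IHCs 0 members were past 2-fold in either direction (background 15.3% higher and 13.4% lower). Between mutant OHCs and mutant IHCs 0 were higher and 1, Cib3, lower (background 14.0% and 14.5%).

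**Figure D4:**
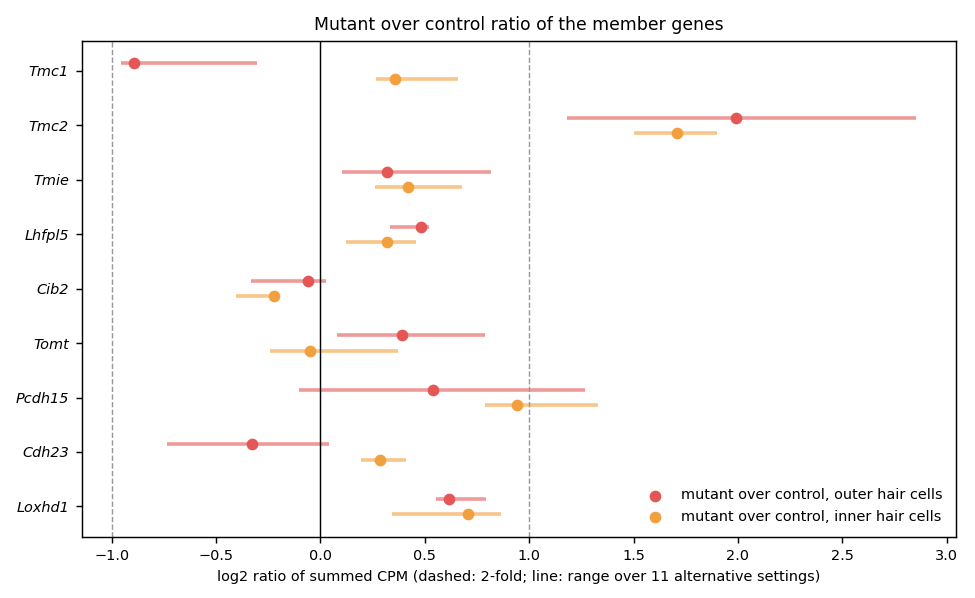
Log2 ratio of mutant over control summed CPM for 9 genes in outer and inner hair cells. Points are the ratios as reported, lines span 11 alternative settings, and dashed lines mark 2-fold. Cib3 is left out because its controls are at 0. Tmc2 lies right of the 2-fold line in both cell types under every setting, and Tmc1 left of 0 in OHCs and right of 0 in IHCs.

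Cells high in one member were mostly not high in the others. Of the 36 pairs of members that could be correlated in control OHCs, 31 had a Spearman correlation between -0.3 and 0.3. This was so for 38 of 45 pairs in mutant OHCs, 32 of 36 in control IHCs and 37 of 45 in mutant IHCs. Tmie and Cdh23 had values of 0.48, 0.33, 0.07 and 0.23 in control OHCs, mutant OHCs, control IHCs and mutant IHCs. In mutant OHCs the long genes Pcdh15, Cdh23 and Loxhd1 had positive values (Pcdh15 with Cdh23 0.37, Pcdh15 with Loxhd1 0.44, Cdh23 with Loxhd1 0.44), and Cib2 had -0.53 with Cdh23 and -0.44 with Pcdh15. Total counts of the cell had a correlation of 0.40 with Cdh23 and -0.58 with Cib2 there, and its part in these values was not tested. Such values were 0.01, 0.03 and 0.13 for the 3 long-gene pairs in control OHCs.

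**Figure D5:**
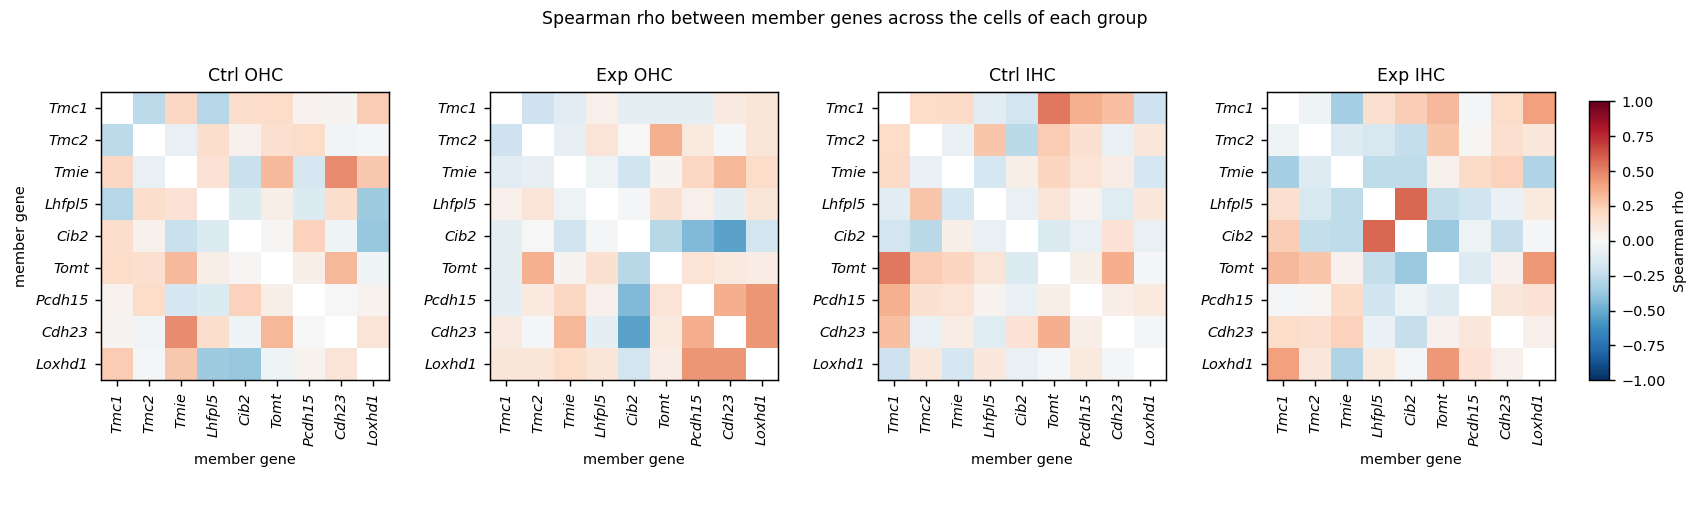
Spearman correlation between 9 of the genes across the cells of each group (Ctrl, control; Exp, mutant), from -1 (blue) to 1 (red); Cib3 and the diagonal are left out. Most squares are pale, and the strongest in mutant OHCs is the negative one of Cib2 with Cdh23.

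By a rule of likeness, 7593 genes at 10 CPM or more in each group were ranked by the mean of their Spearman correlations with a pore gene over the 4 groups. The 5 most like Tmc1 were Hsd17b7 (0.63), a cholesterol synthesis enzyme gene, Car2 (0.61), a carbonic anhydrase gene, Nfib (0.57), a transcription factor gene, Ephx1 (0.56), an epoxide hydrolase gene, and AI593442 (0.56). The 5 most like Tmc2 had weaker values: Nfatc2 (0.39), a calcium-regulated transcription factor gene, Cd82 (0.39), a tetraspanin gene, Dlk2 (0.35), Hacd3 (0.35) and Spats2l (0.34). Among the members Tomt stood highest in both rankings, at place 258 for Tmc1 and place 63 for Tmc2. Its correlation with Tmc1 ran from -0.09 in mutant OHCs to 0.53 in control IHCs. The means of the genes named also cover unequal groups: with Tmc1, Ephx1 had 0.21 in mutant IHCs and AI593442 0.21 in control IHCs. With Tmc2, Spats2l had 0.61 in control OHCs and 0.15 in control IHCs.

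Of 11 genes that anchor the tip link or build the bundle scaffold, 1 was past 2-fold higher and 2 lower in mutant OHCs. The shares over all genes were 18.4% and 13.1%, so these counts were near the background. Whrn, a scaffold gene of stereocilia tips and ankle links, stood at 71.9 CPM in control and 181 CPM in mutant OHCs, a log2 ratio of 1.33 that lay between 0.60 and 1.97 over the settings. Ush1c, the harmonin gene whose product holds cadherin-23 at the upper end of the link, stood at 230 and 94.4 CPM, a log2 ratio of -1.29 that was just within 2-fold (-0.9992) among cells with Xist. Myo1c, a motor once proposed for adaptation, stood at 3.46 and 0.0153 CPM, with 4 of 43 control and 0 of 56 mutant cells at 10 CPM or more. In IHCs Myo1c was the 1 past 2-fold lower (2.78 CPM in controls and 1.17 CPM in mutants), beside 11.7% of all genes. Its log2 ratio had the opposite sign (0.49) among cells with Y-linked transcripts. Whrn went the other way in IHCs, at 96.0 CPM in controls and 57.2 CPM in mutants, a log2 ratio of -0.75.

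Paralogs of the members were mostly low: of 14 listed genes 7 reached 1 CPM on average over the OHC groups and 5 over the IHC groups. In OHCs 4 of 7 were past 2-fold higher in the mutant and 0 lower, beside 18.4% and 13.1% of all genes, and 3 of the 4 rest on few cells. Tmc4, a channel family gene, stood at 39.2 and 127 CPM, Lhfpl2 at 0.841 and 7.63 CPM, and Tmc7 at 0.308 and 3.05 CPM. At 10 CPM or more were 6 of 56 mutant OHCs for Lhfpl2 and 2 for Tmc7, the latter with a log2 ratio between -6.73 and 7.71 over the settings. Lhfpl1 had 0 counts in control OHCs and 5.30 CPM in mutant OHCs, at least 706-fold higher than the limit of 3 counts. It reached 10 CPM in 4 of 56 mutant OHCs, and without the highest cell the log2 of this bound fell from 9.46 to 8.75. In IHCs 0 of 5 were past 2-fold higher and 1 lower, beside 18.8% and 11.7% of all genes. The lower one was Tmc4 (2.65 and 0.998 CPM), which had the opposite sign (0.73) among cells with Xist.

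Among 10 other genes, made up of Pkhd1l1 and channel genes gated by or linked to force, 5 were measured in OHCs and 4 in IHCs. Piezo2, a touch channel gene whose product carries a current at the apical surface of young hair cells, was higher in both mutant groups. It stood at 19.8 CPM in control and 114 CPM in mutant OHCs, and at 1.34 and 50.2 CPM in IHCs, log2 ratios of 2.53 and 5.22. Pkhd1l1, a stereocilia coat gene, had 46.0 CPM in control and 181 CPM in mutant OHCs. Its log2 ratio there was 1.98, with 2.78 in the Y-linked set, 1.19 in the Xist set and 0.90 as the lowest over the settings. In IHCs the ratio of Pkhd1l1 was -0.42 (-0.82 to -0.01). Past 2-fold higher were thus 2 of 5 in mutant OHCs and 1 of 4 in mutant IHCs, beside 18.4% and 18.8% of all genes. Past 2-fold lower in mutant OHCs were Tmem63a (28.1 and 7.22 CPM) and Trpv4 (6.41 and 0.0486 CPM), beside 13.1% of all genes. Trpv4 rests on few cells, with 5 of 43 control and 0 of 56 mutant OHCs at 10 CPM or more. In IHCs 0 were past 2-fold lower, beside 11.7% of all genes.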

How the data were processed

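The authors deposited a table of whole-number read counts per gene for 163 single cells, mapped with HISAT2 2.2.1 to mm10 and counted with featureCounts 2.0.1, per the submitters' processing notes. The annotation release, strand setting and treatment of shared reads are not given in the sources used here. Gene IDs were matched to GENCODE M21 (55034 of 55291, the rest holding 0.0128% of counts). Cells were summed per group, and levels are counts per 1000000 (CPM) of the summed counts or of 1 cell. Each group is 1 sample, so ratios carry only exact intervals for counting error, and no test was run. The computation of ratios and intervals was checked on counts simulated with counting error alone. That check does not cover the spread between cells or animals. Genes past 2-fold were counted among those that reached 1 CPM on average over both groups compared; the 10 members were counted with no such filter. The members and lists were chosen with earlier results of these data known. All 10 members are named; from the other lists, genes past 2-fold between genotypes, except 1 that is not reported here; for likeness, the 5 highest mean Spearman correlations with Tmc1 and with Tmc2. Alternatives were other scalings (edgeR 4.0.16 TMM factors, median of ratios, no mitochondrially encoded genes), equal weight per cell, subsets of cells, other thresholds and thinning. Promoter sequences come from RefSeq (GRCm38.p6) and transcripts from GENCODE M21. Python 3.11.15 and R 4.3.3 were used.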

Additional observations from a re-analysis of the deposited data

Results flagged for a closer look

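In 3 members the mutant to control ratio over all cells had opposite signs in OHCs and IHCs. For Tmc1 alone both signs held under every setting. For Tmc1 the log2 ratio was -0.89 in OHCs and 0.36 in IHCs, a difference of -1.25 that lay between -1.31 and -0.93 over the alternative settings. For Cdh23 the ratios were -0.33 and 0.28, a difference of -0.61 (-1.06 to -0.32). The OHC ratio of Cdh23 was 0.04 among cells under 40 CPM in Gm15772, so the signs were not opposite there. For Tomt they were 0.39 and -0.05, a difference of 0.44 (0.31 to 0.52). None of these differences was tested, since each group is 1 sample.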

How the results depend on the processing

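Of 424 log2 ratios of members under alternative settings, 415 kept the sign of the reported value and 9 did not. These are not separate checks. The other scalings shifted all ratios of a comparison alike, by 0.09 or less. Between mutant OHCs and IHCs the Y-linked set and the set under 40 CPM in Gm15772 gave the same values and are both counted. Higher in mutant OHCs past 2-fold was 1 member in place of 2 with equal weight per cell, where Cib3 gives no value because its controls are at 0, and also 1 without the upper quartile of cells in summed supporting cell markers. Higher in mutant IHCs past 2-fold was 1 member with equal weight per cell, and 3, with Pcdh15, among cells with Xist and among cells at 40 CPM or more in Gm15772. With 1.5-fold as the limit, 3 members were higher and 1 lower in mutant OHCs (27.5% and 21.5% of all genes), 4 were higher and 0 lower in mutant IHCs (28.9% and 19.5%), 1 was lower in control OHCs than in control IHCs, and 1 was higher and 2 lower in mutant OHCs than in mutant IHCs. Between control OHCs and IHCs 1 member was past 2-fold higher among cells with Xist and 2 among cells at 40 CPM or more in Gm15772. Between mutant OHCs and IHCs 0 members were past 2-fold lower in either of these sets. Members with opposite signs in OHCs and IHCs numbered 1 among cells under 40 CPM in Gm15772 and 5 among the others. Counted per kb of merged exons, the median Tmc1 share was 85.1% in mutant IHCs and 73.7% in mutant OHCs. These shares are lower than shares by transcript length would be, as the merged exons of Tmc1 exceed its transcript. Apart from the thresholds and the missing Cib3 value, the cause was not tested. The limits given for Cib3 in controls rest on the total counts of each group. No paired analysis was possible because the replicate numbers only name cells and no test was run.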
